A study of Mus musculus with 6 samples.

Results

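The stretch of mouse chromosome 1 from 131.0 to 139.5 Mb (genome build mm9) holds Fmod, the gene of the matrix proteoglycan fibromodulin, and the neighbouring genes over a length of 8.5 Mb. Its members are all array probes that are not controls and whose mm9 position in the scanner files lies between these bounds, with or without a gene name. They number 319 of the 56605 probes on the array. Of the 319, 247 carried a name for 126 gene symbols and 72 had no gene name. Position alone chose them, but the landmark Fmod was picked because earlier results on these arrays showed it to fall in the knockout, so its own difference is given as a description and as the base for its neighbours. At the lower bound, the outermost member was the unnamed expressed sequence CJ055109, and the next probe outside was AK029879. At the upper bound, the outermost member was AK145521 and the next probe outside belonged to Gm34306. A probe is called detected on an array where the scanner software marked its signal as clearly over the local background. CJ055109, AK029879 and Gm34306 were detected on 0 of 6 arrays, and AK145521 had mean levels of -2.16 in WT and -1.99 in KO.

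The series compared 3 samples from wild-type mice (WT) with 3 samples from mice lacking the long non-coding RNA gene NONMMUT002667 (KO), each hybridised in 1 colour (Cy3) to 1 Agilent array. In both groups the cells were bone marrow stromal cells set free from crushed femurs with collagenase, sorted for Sca-1 and CD29 and against CD45 and CD11b, and expanded in culture to passage 1. The labels give all mice as male and give neither age, strain nor treatment, and they do not say how the knockout was made, how much DNA it removed, or whether a sample pooled several animals, so the p-values reflect the spread of these 6 samples alone, which may be technical. The description and extraction fields of the labels speak of human blood, in conflict with the titles, source names and organism, which were followed.

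Fibromodulin belongs to the small leucine-rich proteoglycans, secreted proteins that bind collagen and shape the assembly of its fibrils in tendon, bone and other connective tissue. The family's genes lie in clusters, and on mouse chromosome 1 Fmod sits beside Prelp (prolargin) and Optc (opticin), which encode members of the same family. The gene order in the RefSeq table for assembly GRCm38.p6 is Optc, Prelp, Bmncr, Gm18970, Fmod, Gm19497 and Btg2. Bmncr is the name under which the RNA NONMMUT002667 appears in the literature, which is background knowledge and is not stated in the labels. If the names are equal, the deleted gene lies between Prelp and Fmod in that order. On the array, 0 probes were named Bmncr and 0 were named after a NONMMUT transcript, and the loss of the target itself was not checked.

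The promoters of Fmod and Prelp are shown first because these 2 are the nearest protein-coding genes on either side of Bmncr in the RefSeq order. They are the 250 bases before the annotated start of Fmod (chr1:134037004-134037253, plus strand) and of Prelp (chr1:133921402-133921651, minus strand), from RefSeq on GRCm38.p6. Capitals mark matches to TGCGGT or TGTGGT on either strand, core letters known to be bound by RUNX factors, which include a master regulator of bone formation. The 2 windows hold 1 match in all, so no matches overlap.
Fmod: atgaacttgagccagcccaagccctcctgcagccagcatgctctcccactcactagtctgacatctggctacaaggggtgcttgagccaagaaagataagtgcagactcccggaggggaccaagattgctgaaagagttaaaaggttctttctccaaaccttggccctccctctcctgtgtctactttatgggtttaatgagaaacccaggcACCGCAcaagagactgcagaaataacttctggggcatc
Prelp: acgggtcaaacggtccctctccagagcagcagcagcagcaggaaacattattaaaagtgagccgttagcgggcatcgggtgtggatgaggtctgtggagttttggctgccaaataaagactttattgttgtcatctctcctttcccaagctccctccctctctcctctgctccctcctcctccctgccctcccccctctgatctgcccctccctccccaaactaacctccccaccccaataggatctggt
The Fmod window held 1 match, to TGCGGT on the opposite strand (ACCGCA), starting 38 bases before the start, and the Prelp window held 0. Over all 32851 promoter windows of 250 bases in the table, 5.1% held TGCGGT and 14.05% held TGTGGT on either strand. A match is a description of letters and not a binding site.

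The probes of transcripts without a protein-coding name that carry the results are shown as the scanner files give them, 60 bases each, with their mm9 positions. The first lies between Prelp and Fmod, the second is the nearest probe on the far side of Fmod, and the last 2 are the members, besides Fmod, with the smallest p of the region.
chr1:135840588-135840647, plus strand: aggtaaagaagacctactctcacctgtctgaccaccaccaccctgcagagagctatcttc
chr1:135956757-135956816, minus strand: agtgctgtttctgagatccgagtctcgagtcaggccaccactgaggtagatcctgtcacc
chr1:138579991-138580050, plus strand: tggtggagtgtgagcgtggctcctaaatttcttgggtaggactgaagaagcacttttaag
Gm19705, chr1:138587304-138587363, plus strand: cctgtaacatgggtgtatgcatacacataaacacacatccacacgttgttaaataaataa

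Levels are log2 processed signals minus the 75th percentile of the same array, and differences are KO minus WT on that log2 scale. All 6 arrays lay on 1 slide and came from 1 scan, with the WT arrays in the first row and the KO arrays in the second, so slide row and group cannot be told apart. The share of spots detected, controls aside, ran from 49.0% to 56.7% over the arrays, with every KO array below every WT array. The lowest correlation between 2 arrays was 0.988, taken over probes. Xist, which silences one X chromosome in female cells, was detected on WT replicate 3 and KO replicate 1. The brightest probes for Eif2s3y and Ddx3y, genes of the Y chromosome, were detected on the other 4 arrays but not on these 2, against the label of male, while that of Kdm5d was detected on all 6. All 8 stromal markers of the list (Ly6a, Itgb1, Pdgfra, Cxcl12, Lepr, Col1a1, Thy1 and Eng) were tested. All 8 macrophage and leukocyte markers (Ptprc, Itgam, Adgre1, Cd68, Csf1r, Lyz2, Tyrobp and C1qa) were detected on all 6 arrays, although the sort removed CD45 and CD11b positive cells. Of the 6 skeletal muscle markers, Acta1 was detected on all 6 arrays (WT mean 1.88, KO mean 1.95), Des on 2 WT and 2 KO arrays and Myf5 on 1 KO array, while Myod1, Pax7 and Ckm were detected on 0 of 6.

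Of the 319 members, 149 passed the filter on dim probes, a share of 46.7% against 50.5% of all probes. Among the rest, 133 were detected on 0 of 6 arrays and 37 were detected on some arrays only. Passing took detection on all 3 arrays of WT, of KO or of both: 129 passed through both groups, 20 through WT alone and 0 through KO alone. Of these 20, 12 were lower in KO, and the median difference of the 20 was -0.21. Passing through WT alone favours a negative difference but does not fix the sign. In the 133 members detected on 0 arrays, median signals were higher on every KO array (-6.31 to -5.82) than on every WT array (-6.76 to -6.53). Such a shift favours positive differences near background, and its part in the rises at dim probes was not tested.

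Within the region, Fmod was lower in the samples labelled KO, and no other tested member was called. Fmod, with 1 probe (chr1:135943998-135944057, plus strand, mm9), had levels of 1.78, 1.84 and 2.23 in WT replicates 1 to 3 and of -0.82, -0.63 and 0.01 in KO replicates 1 to 3. The groups lay apart, and the highest KO value was below the lowest WT value. The mean was 1.95 ± 0.25 (SD, n = 3) in WT and -0.48 ± 0.44 (SD, n = 3) in KO, a 5.38-fold lower signal. In the limma fit over all 28607 tested probes the difference was -2.43 (SE 0.23, 95% interval -2.99 to -1.87), with a Benjamini-Hochberg adjusted p of 0.0496. That p is just under the threshold of 0.05 and rose above it in 5 of 6 fits that left out 1 array (adjusted p from 0.0570 to 0.117), while the difference stayed between -2.67 and -2.26. Without WT replicate 3 and KO replicate 1, the arrays with Xist signal, it was -2.11 (adjusted p = 0.113). Over the whole array, the fit called 14 of 28607 probes lower, 0.0489% of them, and 3 higher, 0.0105%. In the region the counts were 1 lower, which is Fmod, and 0 higher. Since Fmod was known to be called when the region was drawn around it, nothing is read from that count.

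Prelp, the collagen- and heparin-binding proteoglycan that precedes Bmncr in the RefSeq order, had lower means in KO that did not pass the test. Its bright probe (chr1:135806934-135806993, minus strand, 137 kb before the Fmod probe) had levels of 1.72, 1.27 and 0.29 in WT and of -0.48, 0.23 and 0.79 in KO. The groups overlapped, because WT replicate 3 lay below KO replicate 3. The difference was -0.92 (SE 0.44, 95% interval -1.97 to 0.13, adjusted p = 0.383). A second, dim Prelp probe, whose ends lie 1723 bases apart on the genome, had levels of -2.81, -3.89 and -4.30 in WT and was detected on 0 of 3 KO arrays. The KO signals were -5.39, -4.85 and -4.14, so the groups overlapped. Its mean signal was at least 1.19-fold lower in KO, and its limma p of 0.0428 (adjusted p = 0.305) rests in part on signals not detected. This probe passed the filter through WT alone, which favours a negative difference. The third Prelp probe and both probes of Optc, a proteoglycan known from the eye, were detected on 0 of 6 arrays.

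None of the small leucine-rich proteoglycan genes on other chromosomes was called in the limma fit. Of 14 listed, 10 were tested, and 4 of these (Lum, Podn, Chad and Aspn) passed the filter through WT alone, which favours negative differences. Of the other 6, detected on all arrays, 5 had a negative difference and 2 had an unadjusted p under 0.05 in the lower direction, beside 43.8% and 7.28% of all tested probes. Their median difference was -0.44 beside 0.02 over all tested probes, with Tsku (0.02) and Ogn (-0.04) near 0. Bgn (biglycan) had levels of 2.48, 2.43 and 2.45 in WT and 1.87, 1.70 and 1.57 in KO, a difference of -0.74 (adjusted p = 0.0593), although its second tested probe differed by -0.02. Dcn (decorin) had a difference of -1.05 (adjusted p = 0.161), and Lum (lumican) was detected on all WT and 0 KO arrays. Of the 8 stromal markers 6 had a negative difference, the list's median was -0.09, 1 was lower and 1 was higher at an unadjusted p under 0.05, and 0 were called. The lower was Col1a1, the type I collagen chain, with -0.90 at its brightest probe (adjusted p = 0.141) but -0.14 and -0.21 at the others, and the higher was Cxcl12, a chemokine of marrow stroma, with 0.37 (adjusted p = 0.227). The summed linear level of the stromal markers ranged from 342 to 366 times the array's 75th percentile in WT and from 169 to 261 in KO. Col1a1 made up most of it, and without Col1a1 the sums overlapped, from 68.9 to 73.2 in WT and from 64.6 to 75.3 in KO. The summed level of the macrophage list ranged from 888 to 903 in WT and from 952 to 1017 in KO. At the brightest probes, 7 of 8 markers had a positive difference, while 56.2% of all tested probes were not negative. Second probes of Csf1r (-0.30), Itgam (-0.25), Lyz2 (-0.16) and Adgre1 (-0.08) were negative, and the further probes of Ptprc and Cd68 were positive. The part of cell composition in the fall of Fmod was not tested, and in bulk samples fewer cells of a type and less RNA per cell cannot be told apart.

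**Figure D1:**
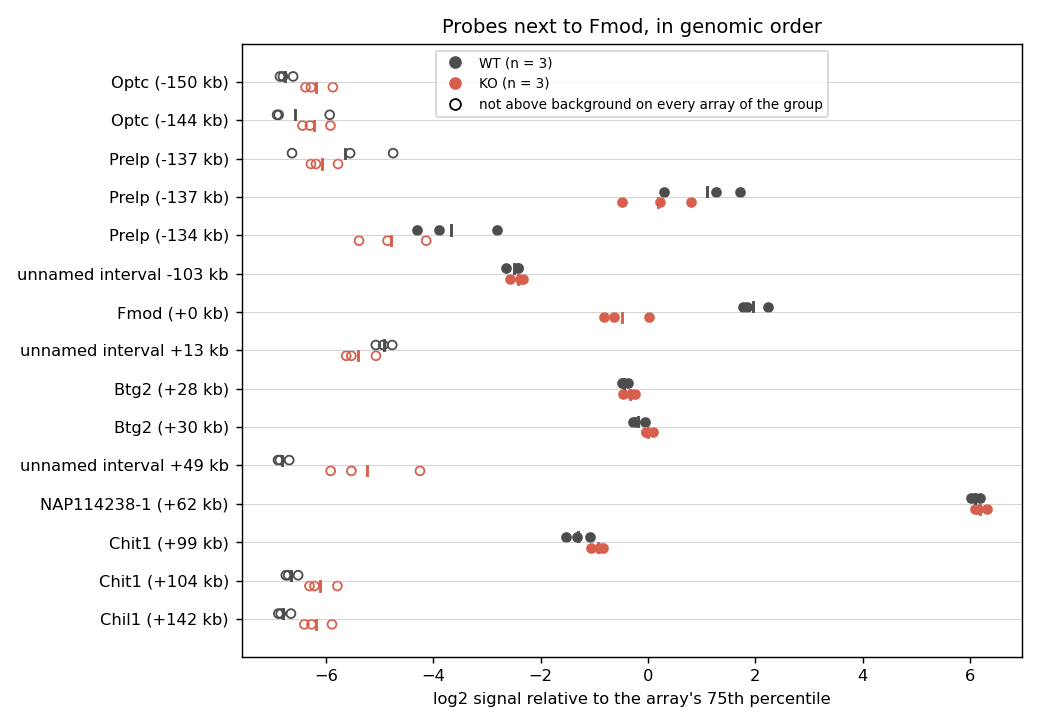
Levels of the 15 probes from Optc to Chil1 in genomic order, with the distance from the Fmod probe in brackets. The x axis gives log2 signal relative to the array's 75th percentile, each point is 1 array, bars are group means (n = 3 WT in grey, 3 KO in red), and open points mark a group that was not detected on all its arrays. Fmod is the one row with filled points far apart, at means of 1.95 and -0.48; the Prelp rows overlap, and the other tested rows differ by at most 0.38.

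No tested probe next to Fmod was called. Within 0.15 Mb, the 95% intervals of the tested probes other than those of Prelp reached no lower than -0.18. Those of the 2 tested Prelp probes reached -1.97 and -2.20, into the Fmod interval of -2.99 to -1.87. Within 0.15 Mb there were 13 other members, of which 7 were tested, 5 of them with a positive difference, and their median was 0.09. At an unadjusted limma p under 0.05, 1 of the 7 was lower and 1 was higher, beside 7.28% and 8.24% of all tested probes. The lower was the dim Prelp probe, which passed the filter through WT alone. The single probe between Prelp and Fmod, for an unnamed interval on the plus strand (chr1:135830093-135840837) that ends before Fmod, had levels of -2.42, -2.65 and -2.42 in WT and -2.32, -2.39 and -2.57 in KO. Its groups overlapped, and the difference was 0.07 (95% interval -0.18 to 0.32). Between that probe and the Fmod probe lay 103 kb without a probe, so transcripts from there, possibly including the deleted RNA, are not measured.

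On the far side of Fmod, the nearest probe, for an unnamed interval on the minus strand 12.8 kb away, was detected on 0 of 6 arrays, as was the next unnamed interval at 49.2 kb. Btg2, an antiproliferative gene induced by p53 and by serum, is the nearest expressed named gene, with 2 probes at 28.1 and 29.8 kb. The brighter had levels of -0.28, -0.06 and -0.25 in WT and -0.04, -0.05 and 0.10 in KO. Both Btg2 probes had a small positive difference, 0.10 (95% interval -0.10 to 0.31) and 0.20 (-0.02 to 0.42), and neither was called. The bright unnamed transcript NAP114238-1, 62.3 kb from Fmod, differed by 0.09 (-0.13 to 0.31), with overlapping groups and a WT mean of 6.10.

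Chit1, the chitinase secreted by activated macrophages, lies 99.2 kb from Fmod and is the member that was higher. It had levels of -1.53, -1.32 and -1.09 in WT and -1.06, -0.92 and -0.83 in KO, without overlap. The difference was 0.38 (SE 0.13, 95% interval 0.07 to 0.69), with an unadjusted p of 0.0238 that did not survive adjustment (adjusted p = 0.247). The other Chit1 probe was detected on 0 of 6 arrays, as was Chil1, a chitinase-like protein gene 142 kb away.

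Between 0.15 and 0.5 Mb of Fmod most named genes differed little, and several are housekeeping genes with narrow spreads. Snrpe, a core protein of the splicing machinery, had levels of 4.24, 4.34 and 4.22 in WT and 4.17, 4.29 and 4.29 in KO, a difference of -0.01 (95% interval -0.20 to 0.17). Zc3h11a, a zinc finger protein linked to mRNA export, had 4 tested probes with differences from -0.24 to 0.03. Zbed6, a regulator of muscle growth encoded within it, differed by 0.13. Tmem183a had 3 probes with differences of 0.00, 0.02 and 0.02. Adipor1, an adiponectin receptor, differed by -0.02 at its brightest probe (-0.19 to 0.15) and by -0.20 to 0.00 over its 4 probes. Ppfia4, a liprin of the synapse, had 3 probes between -0.01 and 0.11, Gm10537 differed by -0.06, and Rabif, a Rab-interacting factor, by -0.09 and -0.30.

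In that window 3 genes had a larger difference. Cyb5r1, a cytochrome b5 reductase 360 kb from Fmod, had levels of 0.12, 0.24 and 0.34 in WT and 0.01, -0.18 and -0.29 in KO. Its groups lay apart, with a difference of -0.39 (adjusted p = 0.176), while its brighter probe overlapped and differed by -0.18 (adjusted p = 0.387). Klhl12, an adaptor of a ubiquitin ligase, was higher by 0.39 at a dim probe detected on 2 of 3 KO arrays (adjusted p = 0.151) but differed by -0.06 at its bright probe. Mgat4f had the most negative difference of the 3, -0.69, but its WT levels spread from -2.72 to -1.17 and its groups overlapped (adjusted p = 0.443).

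By distance from Fmod, the medians stayed between -0.06 and 0.15. The median difference was 0.15 over the 4 tested members within 0.1 Mb (0 negative), -0.06 over 5 from 0.1 to 0.25 Mb (3 negative), -0.02 over 23 from 0.25 to 0.5 Mb (16 negative), 0.07 over 18 from 0.5 to 1 Mb (6 negative), 0.03 over 47 from 1 to 2 Mb (15 negative) and 0.00 over 51 beyond 2 Mb (26 negative). Over the 50 tested members within 1 Mb without Fmod it was 0.00, with 25 negative and 25 positive. The 4 members within 0.1 Mb include both Btg2 probes, the 5 from 0.1 to 0.25 Mb include both tested Prelp probes, and both bins are thinly filled.

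**Figure D2:**
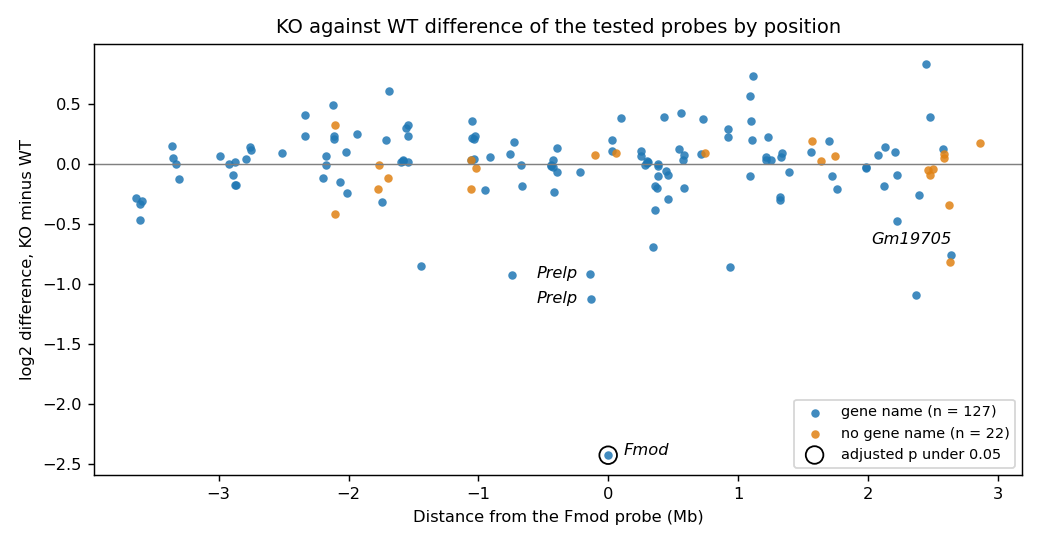
Difference between KO and WT (log2, y axis) against the distance from the Fmod probe in Mb (x axis) for the 149 tested members. Blue points have a gene name and orange points none, and the ring marks an adjusted p under 0.05. Fmod stands alone at -2.43, and within 0.1 Mb of it, a thinly filled span that includes both Btg2 probes, 0 of 4 points are negative.

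Of the tested members other than Fmod, 66 had a negative difference, 44.6% beside 43.8% of all tested probes, and the median was 0.03 beside 0.02. At an unadjusted p under 0.05, 10 of them were lower, 6.757% against 7.28% of all tested probes, and 16 were higher, 10.81% against 8.24%. The groups did not overlap in 14 members with lower KO values, 9.459% against 9.57%, and in 22 with higher ones, 14.86% against 12.6%. These shares are near those of the array as a whole. A difference under 0.25 in either direction was seen in 109 of the 149, Fmod not among them. By strand, Fmod included, 41 of 83 tested members on the plus strand, that of Fmod, and 26 of 66 on the minus strand were negative.

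After Fmod, the members with the smallest p were 2 probes on its strand, 2636 and 2643 kb away, over 1 non-coding locus. Gm19705, a long non-coding RNA in RefSeq, had levels of -2.77, -2.69 and -2.83 in WT and -3.47, -3.70 and -3.40 in KO. Every KO value lay below every WT value, by more than the spread within either group. The difference was -0.76 (SE 0.10, 1.69-fold lower), with an adjusted p of 0.0592 that misses the threshold. The unnamed interval chr1:138579972-138587381, whose span holds the Gm19705 probe shown above, had levels of -3.28, -2.95 and -3.27 in WT and -3.81, -4.14 and -4.01 in KO. Its difference was -0.82 (SE 0.13, adjusted p = 0.0749), again without overlap, but it was detected on only 1 of 3 KO arrays. The 2 probes do not share a sequence, but they may read the same transcript and are not independent.

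On the opposite strand there, the longer unnamed interval chr1:138570107-138632310 was detected on all WT and 0 KO arrays, yet its groups overlapped and its difference was -0.35 (unadjusted p = 0.105). Its plus-strand counterpart and Nr5a2, a nuclear receptor gene that follows Gm19705 in the RefSeq order, were detected on 0 of 6 arrays. Zfp281, a zinc finger gene before it in that order, differed by 0.13. Both signals of the Gm19705 locus are low, with WT means of -2.76 for Gm19705 and -3.16 for the interval, where 0 is the array's 75th percentile.

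Among unnamed members in general, 22 of 72 were tested, 30.6% against 51.4% of the named ones, and 11 were negative and 11 positive, with a median of 0.01. At an unadjusted p under 0.05, 2 were lower and 1 was higher, beside 7.28% and 8.24% of all tested probes, and 0 were called. Each of these passed the filter through WT alone, which favours negative differences. Besides the interval at Gm19705, the unnamed interval chr1:133841295-133841645 had levels of -4.07, -4.09 and -3.93 in WT and -4.59, -4.33 and -4.43 in KO. It was detected on 0 of 3 KO arrays, and with the lowest measurable signal in place of its own no fold can be given (unadjusted p = 0.0039). Its neighbour chr1:133839368-133839762 on the same strand had a positive difference, 0.32 (unadjusted p = 0.0353). The interval chr1:134171292-134176062 on the minus strand differed by -0.21 with groups apart (unadjusted p = 0.0627).

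By role, the immune genes held differences in both directions. Of 18 listed, 7 were tested and 0 were called. An unadjusted p under 0.05 was met by 2 with lower and 2 with higher values in KO, beside 7.28% and 8.24% of all tested probes. With so few genes nothing is read from these counts, and Cd55b, one of the lower, passed the filter through WT alone. Cd55, the decay-accelerating factor that protects cells from complement, had lower values at all 3 tested probes. At its brightest, the levels were -1.85, -1.62 and -1.51 in WT and -1.94, -2.02 and -2.03 in KO, and the groups lay apart. The 3 differences were -0.47, -0.34 and -0.31, with adjusted p from 0.21 to 0.301, and the related neighbour Cd55b differed by -0.29 (adjusted p = 0.256). Cd55 and Cd55b are closely related copies, so their probes may read each other's transcripts.

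Ptpn7, a phosphatase of blood cells, had levels of 1.11, 0.95 and 1.13 in WT and 1.44, 1.44 and 1.38 in KO at its bright probe. It was higher by 0.36 (adjusted p = 0.125) with groups apart, while its other probes differed by 0.56 and -0.10. Rab7b, a lysosomal Rab protein of myeloid cells, was among the brightest members, with levels of 5.16, 5.27 and 5.50 in WT and 5.66, 5.77 and 5.71 in KO. Its difference was 0.41 (adjusted p = 0.156). Rab7b, Ptpn7 and Chit1 are all expressed by blood cells, and the macrophage markers given above had a median difference of 0.13 at their brightest probes. Further probes of Csf1r, Itgam, Lyz2 and Adgre1 were negative, and those of Ptprc and Cd68 positive. In the immune list, which leaves out Rab7b, 4 tested genes were positive and 3 (Cd55, Cd55b and Rassf5) negative at their brightest probes. The part of blood cells in these values was not tested. Mapkapk2, a stress kinase, and Rassf5, a Ras effector of lymphocytes, differed by 0.07 and -0.17. Il19, Il20, Fcmr, C4bp, Lax1, Chil1 and Ctse were detected on 0 of 6 arrays.

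Of the growth, cell cycle and p53 genes 10 of 11 had a probe and were tested, and 7 had a positive difference. The median was 0.20 beside 0.02 over all tested probes, and 0 were called. At an unadjusted p under 0.05, 1 was higher, beside 8.24% of all tested probes. Kif14, a mitotic kinesin, was that gene, with levels of -0.90, -1.24 and -1.13 in WT and -0.61, -0.92 and -0.56 in KO (difference 0.39, adjusted p = 0.247). A dimmer Kif14 probe had the most positive difference of the region, 0.83, which rests on a value of -2.02 in KO replicate 3 beside -3.82 and -3.68 in the others. Mdm4, an inhibitor of p53, had 6 probes with differences from 0.03 to 0.36, Phlda3, a p53 target, differed by -0.10 and Cdk18, a cyclin-dependent kinase, by 0.25. Kdm5b, a histone demethylase, was higher by 0.42 with groups apart at 1 dim probe (adjusted p = 0.113) but differed by -0.21 to 0.13 at its other 4. That dim probe was near background and detected on 1 of 3 KO arrays.

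Among receptors, hormones, channels and transporters 8 of 16 were tested, with 5 negative, a median of -0.07 and 0 called. At an unadjusted p under 0.05, 1 was higher, beside 8.24% of all tested probes. Gpr37l1, a receptor known from glia, had low levels of -3.44, -3.69 and -3.66 in WT and -3.34, -2.57 and -2.68 in KO, a difference of 0.73 (adjusted p = 0.181), and KO replicate 1 lay close to WT. Nfasc, a neuronal adhesion molecule, was detected on all WT and 0 KO arrays and at least 1.39-fold lower in KO, but its groups overlapped (unadjusted p = 0.0677). Slc45a3, a sugar transporter, and Syt2, a synaptotagmin, differed by -0.15 and 0.08. Ren1, Kiss1, Avpr1b, Adora1, Atp2b4, Slc26a9 and Lrrn2 were detected on 0 of 6 arrays.

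Of the muscle genes 3 of 9 were tested and 0 were called. At an unadjusted p under 0.05, 1 was higher, beside 8.24% of all tested probes. Csrp1, a LIM protein of smooth muscle and the brightest of them, had levels of 6.21, 6.42 and 6.28 in WT and 6.67, 6.37 and 6.45 in KO, a difference of 0.19 (adjusted p = 0.446). Ppp1r12b, a myosin phosphatase subunit, was higher by 0.38 with groups apart (adjusted p = 0.205), and Tnni1, slow troponin I, differed by -0.21 with overlapping groups. Myog, Mybph and Igfn1 were detected on 0 of 6 arrays.

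Nuclear, RNA and housekeeping genes were centred on 0, with 20 of 22 tested, 10 negative and 10 positive, a median of 0.00 and 0 called. At an unadjusted p under 0.05, 1 was lower, beside 7.28% of all tested probes. That gene was Ddx59, an RNA helicase, with levels of -0.69, -0.65 and -0.88 in WT and -0.92, -1.06 and -1.02 in KO (difference -0.26, adjusted p = 0.257). A dimmer Ddx59 probe differed by -1.09, but it passed the filter through WT alone, which favours negative differences. Timm17a, a subunit of the mitochondrial import channel, differed by 0.03. Dim probes of Nucks1 (detected on 2 of 3 KO arrays) and Rbbp5 were higher by 0.49 and 0.30 with groups apart. Their bright probes differed by 0.23 and 0.02. Tmem81, a membrane protein gene beside Rbbp5, was higher by 0.32 (adjusted p = 0.199). Pik3c2b, a lipid kinase, was detected on all WT and 0 KO arrays at 1 probe, with overlapping groups and a difference of -0.22 (unadjusted p = 0.184).

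Where a gene had several tested probes, their signs could differ: 24 of 35 such genes had 1 sign over all their probes and 11 had both signs. Fmod has a single probe and so has no such check.

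**Figure D3:**
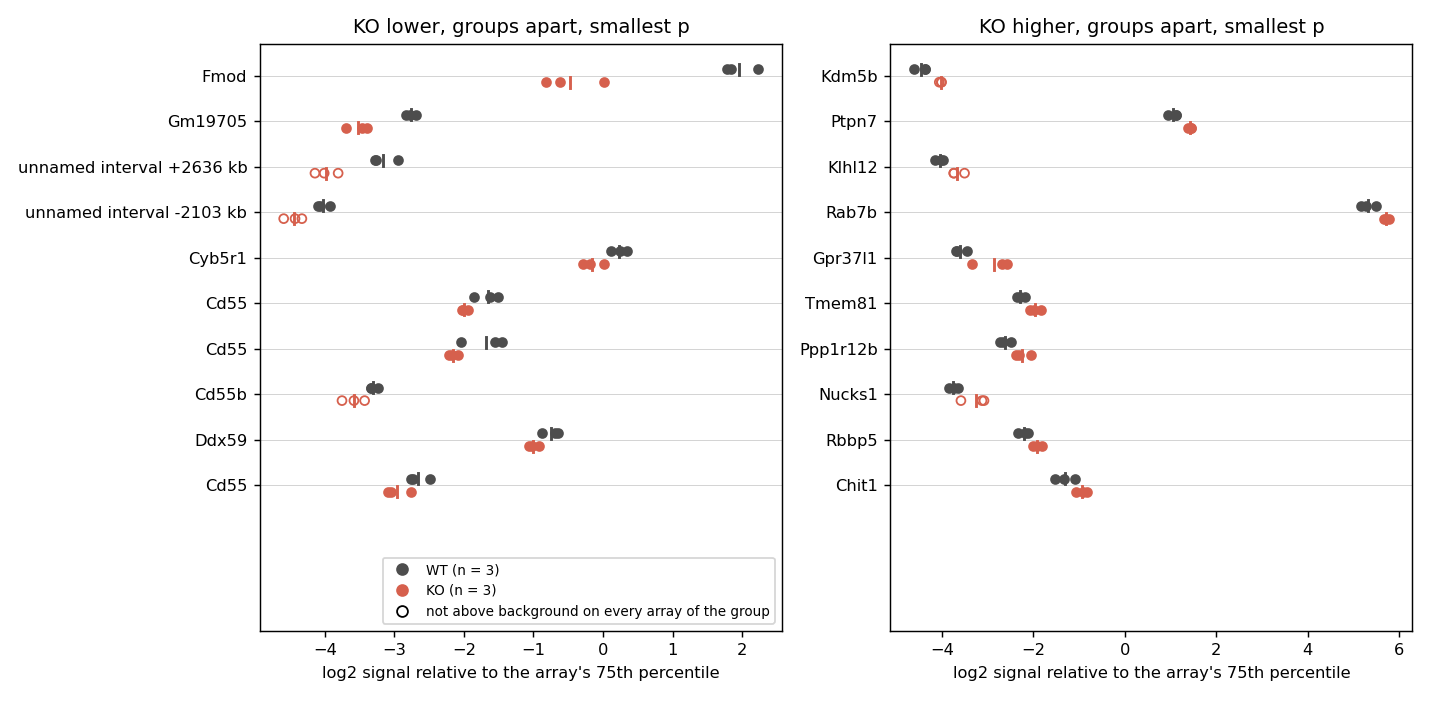
Levels (log2 signal relative to the array's 75th percentile, x axis) of the 10 members per direction with the smallest unadjusted p among those whose 3 KO values lie wholly below (left) or above (right) the 3 WT values. Points are arrays, bars are means of 3, and open points mark a group not detected on all its arrays. The difference between group means of 2.43 for Fmod exceeds the next, 0.82, and every member on the right differs by at most 0.73.

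**Figure D4:**
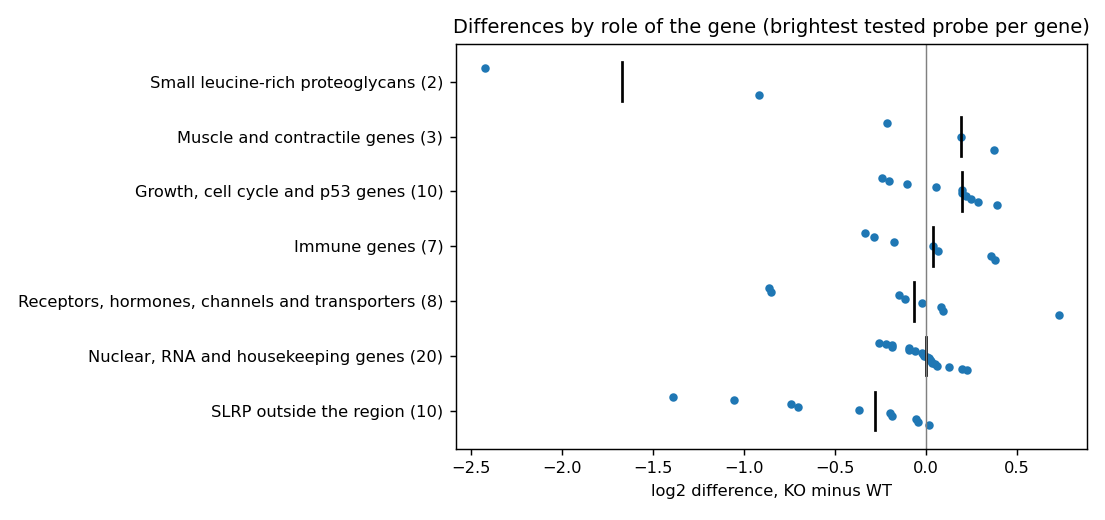
Difference between KO and WT (log2, x axis) of the tested genes of each list, at the brightest tested probe of a gene, with the number of genes in brackets and black bars at the medians. Fmod lies farthest to the left, followed by Lum, Dcn and then Prelp, 9 of the 10 proteoglycan genes of other chromosomes lie below 0, 4 of them having passed the filter through WT alone, and the nuclear and housekeeping genes of the region centre on 0.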

How the data were processed

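RNA of 6 cultures was measured on Agilent arrays, 62976 spots each. The intensity values used are the deposited scanner signals, per the file headers from Feature Extraction 10.7.1.1, while the submitters' processing notes name version 9.1. The deposited series table holds log2 values whose columns share 1 distribution. It was used as an alternative.

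Outlier-flagged spots (49 to 131 per array) were left out, spots of a probe averaged, and the 75th percentile of log2 processed signals subtracted. Tests were limited to probes with 2 or more values per group and signal well above background (for a share of 0.5 or more of their spots) on all arrays of WT, of KO or of both. KO was compared with WT in R 4.3.3 with limma 3.58.1 (two-sided, without covariates, residual degrees of freedom 4, prior 2.65), with Benjamini-Hochberg adjustment over 28607 probes and a threshold of 0.05. The script was tested on simulated data. The number of arrays limits the precision.

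Where a group was dim on all arrays, the fold is a bound. It sets the bright mean against the dim group's mean of the higher of the lowest measurable signal and the probe's own.

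Of the 319 members, 183 were named by accession in the RefSeq table (GRCm38.p6), 56 by symbol and 4 by synonym. Another 4 kept the name in the file. Exon and UTR positions were not used here.

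Named are Fmod and Prelp, genes with a tested probe within 0.5 Mb of Fmod, per direction the 10 members with the smallest p among those whose groups lie apart, the 3 brightest of each role list, members above background in all of 1 group and none of the other, and per direction 4 unnamed ones. Other names were chosen after their values were seen. The members, lists and tests were chosen with earlier results of these data known.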

Additional observations from a re-analysis of the deposited data

Results flagged for a closer look

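The tests left out 7 probes of the region that were well above background on 1 KO array and on 0 of 3 WT arrays. Fcamr, an Fc receptor gene, reached a level of -2.40 in KO replicate 3, beside at most -6.71 in WT. The cytokine gene Il24 reached -1.11 in KO replicate 3 at one probe (WT at most -6.71) and -3.87 in KO replicate 2 at another (WT at most -4.73). The lipid kinase gene Pik3c2b reached -2.05 in KO replicate 2 at a probe other than the one tested. The non-coding RNA Platr22, a neighbour of Gm19705 in the RefSeq order, reached -2.20 in KO replicate 2. Among unnamed intervals, chr1:134857123-134869291 on the minus strand reached -3.90 in KO replicate 1, and chr1:135783286-135783637 on the minus strand reached -1.51 in KO replicate 2. Each signal appeared on 1 array only, and 22 other untested members showed the reverse, with signal on some WT arrays and on 0 KO arrays.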

How the results depend on the processing

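Fmod kept its negative difference under all alternatives run, from -2.67 to -2.11, but its call did not always hold. The adjusted p was 0.0772 with no filter on dim probes (difference -2.43), 0.113 without the 2 arrays with Xist signal (-2.11) and 0.0848 with Xist signal as a term (-2.43), and each of these fits called 0 members. The same-numbered samples did not deviate together (correlations of 0.06, 0.15 and -0.03), while other pairs ran from -0.24 to 0.18. No pairing by number was seen, but 3 samples per group cannot exclude one. With the replicate block, Fmod kept -2.43 with an adjusted p of 0.136, and 0 members were called. Leaving out 1 array gave 0 to 1 called members, Fmod differences from -2.67 to -2.26 and 7 to 16 members lower at an unadjusted p under 0.05, the 7 without KO replicate 2. Over the whole array, these fits had 1761 to 2128 probes lower of 28647 to 29475 tested. With Xist signal as a term 17 members were lower, beside 2172 of all 28607 tested probes. With no filter, 101 of 319 members were higher, beside 15820 of all 56605 probes. The medians then became 0.14 (region without Fmod), 0.10 (within 1 Mb) and 0.18 (unnamed), beside 0.13 over all probes. In the 133 members at background, median signals per array ran from -6.76 to -6.53 in WT and from -6.31 to -5.82 in KO. Median centring moved the whole array's median from 0.02 to 0.00. Of 934 refits of 63 other named probes, 893 kept direction and call, and the 41 others changed the sign of an uncalled difference. Over all probes, called counts ran from 0 to 202 lower (normexp and quantile normalization) and from 0 to 38 higher (variance trend), beside 14 and 3. A slide block was not run because all arrays lay on 1 slide. Levels near background limit the Gm19705 locus and most unnamed intervals.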
